A study of Mus musculus with 15 samples.

Results

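The genes described here are 33 lymphocyte genes of the mouse, chosen by name with earlier results of these data known. They are 13 genes of T cells, 7 of natural killer (NK) and cytotoxic cells, 11 of B cells and 2 of lymphocyte precursors. Each was read through its brightest probe set, the one with the highest mean over all arrays, and 31 of the 33 were measured among 18193 genes. Lck and Klrb1c were not analysed here, Lck because no probe set carried its symbol in the probe table used, and Klrb1c because its probe set is assigned to a pair of genes. The study profiled 3 groups of mouse lung tissue on Affymetrix whole-genome arrays, as models of small cell lung cancer, an aggressive neuroendocrine tumour. The 3 Rb/p53/p130 tumours carried deleted alleles of Rb, of p53 and of the Rb relative p130, and were dissected 6 months after Cre delivery. The 10 Rb/p53 tumours carried deleted alleles of Rb and p53 and were dissected 8 to 12 months after it. Both kinds of tumour were started with an adenovirus carrying Cre recombinase, given through the nose, and the dissected tumours keep cells of the host among the tumour cells. The 2 normal lungs were tumour-free lungs of adult wild-type mice, for which the labels name no virus. Genotype and time after infection cannot be told apart, and the sources used here do not give the promoter that drives Cre.

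Lymphocytes recognise antigen through clonal receptors that signal through partner proteins. In T cells these partners are the CD3 chains, helped by the coreceptors CD4 and CD8, and in B cells they are CD79a and CD79b. NK cells and cytotoxic T cells kill through perforin and granzymes, and the lung holds all of these cells in its vessels and walls. The B cell genes on the list also hold coreceptors (Cr2, Cd22, Fcrla), kinases (Blk) and the factor Pax5, which keeps B cell identity.

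Levels are log2 intensities made with RMA. Array medians lay between 6.58 and 6.68, and the highest lower quartile of any array, 5.05, served as the floor for a level that could be told from background. By group mean, 8 members lay at or below this floor in Rb/p53/p130 tumours, 9 in Rb/p53 tumours and 1 in normal lung, so folds against them are lower bounds. Of the members, 14 lay below every array's median on all 15 arrays. Neuroendocrine genes averaged 11.17 to 11.50 on the Rb/p53/p130 tumour arrays, 11.08 to 11.79 on the Rb/p53 tumour arrays, and 5.36 to 5.73 in normal lung. Alveolar and airway genes averaged 10.90 to 11.05, 9.27 to 12.09 and 13.52 to 13.62 in the same order of groups, so the arrays carried the tissues their labels name. Whether each tumour or lung of a group is from another mouse is not stated, and the p-values cover the spread among the arrays given, which may be technical.

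Genes of all 3 lymphocyte kinds fell in the tumours relative to normal lung, among them the NK receptor gene Klrd1, the CD3 chain gene Cd3g and the B cell genes Cd79b, Blk and Vpreb3. In Rb/p53/p130 tumours, 4 of 12 T cell genes, 4 of 6 NK and cytotoxic genes and 8 of 11 B cell genes were called lower than in normal lung, against 15.6% of all genes (limma, Benjamini-Hochberg adjusted p under 0.05). In Rb/p53 tumours, 5 of 12 T cell genes, 4 of 6 NK and cytotoxic genes and 10 of 11 B cell genes were called lower, against 20.5% of all genes. None of the 31 was called higher in either comparison, where 15.3% and 18.3% of all genes were. Every tumour lay below both lungs for 26 of the 31 members in Rb/p53/p130 tumours, beside 33.2% of all genes, and for 17 of the 31 in Rb/p53 tumours, beside 20.2%. Whether the subgroups differ from each other was not tested. The median change in Rb/p53 tumours was -0.45 for T cell genes, -1.46 for NK and cytotoxic genes and -1.41 for B cell genes on the log2 scale, beside -0.02 over all genes. In Rb/p53/p130 tumours the medians were -0.52, -1.34 and -1.22, beside -0.02. Both comparisons share the 2 normal lungs. Without normal lung 1 fewer B cell genes were called in both comparisons, and without normal lung 2 fewer T cell genes. Fewer of all genes were called lower in these fits as well, each of which keeps a single lung. In bulk tissue, fewer cells of a type and less RNA per cell cannot be told apart.

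**Figure D1:**
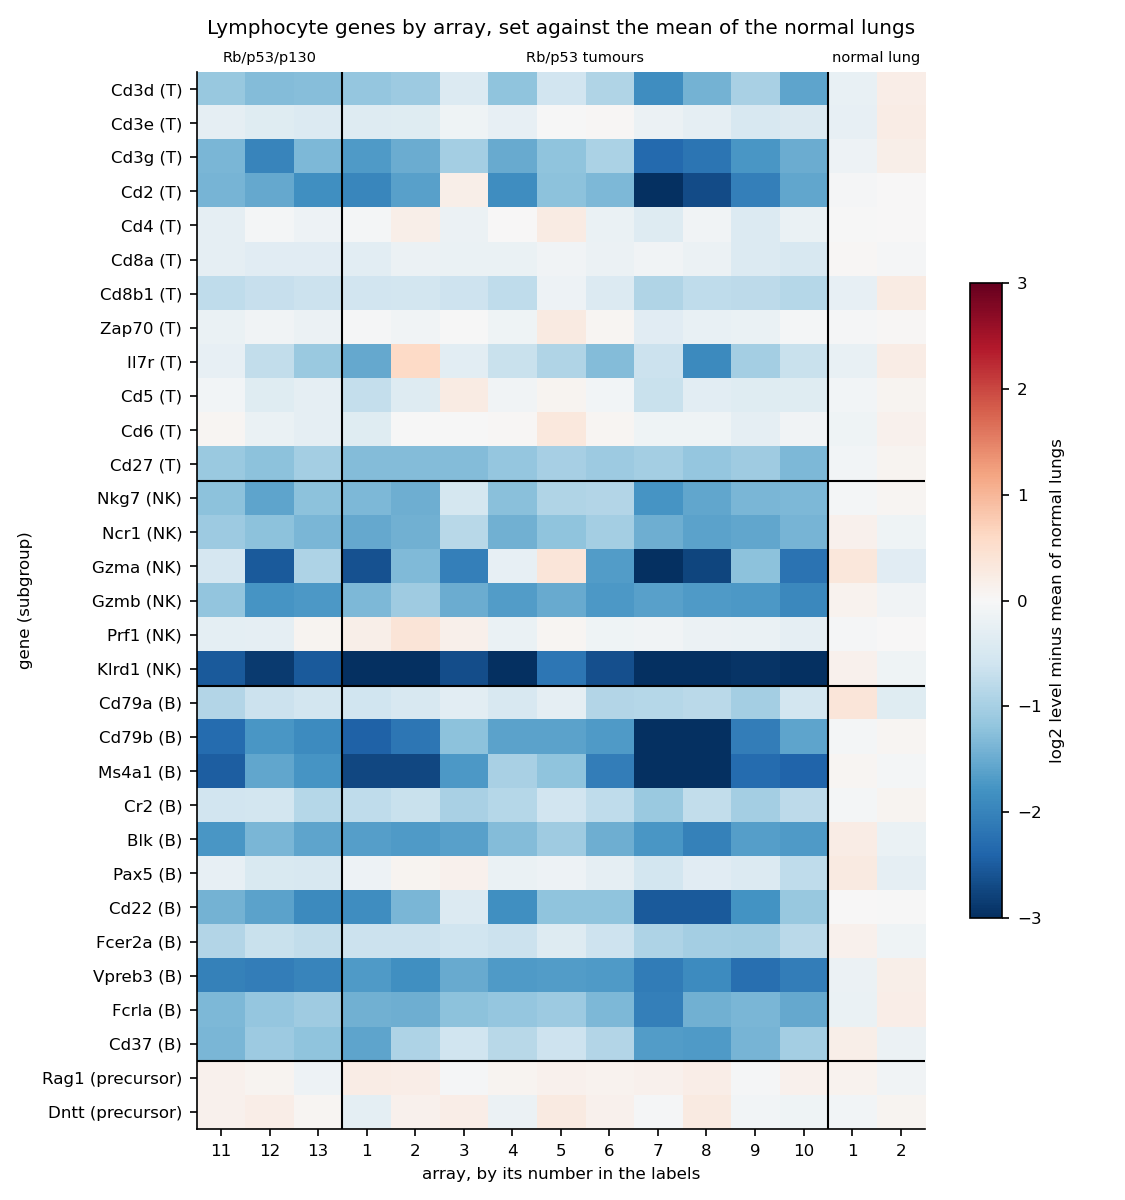
Log2 level of each of the 31 measured genes (rows, with subgroup) on each array (columns), minus the mean of the normal lungs; changes beyond 3 are drawn at the end of the colour scale. Klrd1, Cd79b and Ms4a1 are the darkest rows, and Cd4, Cd6, Prf1, Rag1 and Dntt are near white throughout.

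Of the CD3 chain genes, Cd3g and Cd3d passed the test in both comparisons and Cd3e in neither. Whether these genes differ from each other was not tested. Cd3g, the gamma chain of the CD3 complex, had log2 levels of 5.46, 4.84 and 5.48 in Rb/p53/p130 tumours. In Rb/p53 tumours it ran from 4.50 through a median of 5.32 to 5.89, against 6.67 and 7.00 in normal lungs. Every tumour lay below both lungs. The change was -1.57 ± 0.36 (SE, limma adjusted p = 0.00500) in Rb/p53/p130 tumours and -1.57 ± 0.31 (limma adjusted p = 0.00115) in Rb/p53 tumours, or 2.98-fold and 2.97-fold lower. Cd3d, the delta chain, had 6.19, 6.01 and 6.04 in Rb/p53/p130 tumours and from 5.45 through 6.19 to 6.92 in Rb/p53 tumours, against 7.10 and 7.53 in normal lungs. It too was lower in every tumour, by 2.36-fold (limma adjusted p = 0.0136) and by 2.16-fold (limma adjusted p = 0.00738). Cd3e, the epsilon chain, had 6.70, 6.59 and 6.55 in Rb/p53/p130 tumours and from 6.47 to 7.00 in Rb/p53 tumours, against 6.72 and 7.19 in normal lungs. Its change of -0.34 (95% interval -0.71 to 0.03) and of -0.24 (95% interval -0.56 to 0.07) did not pass the test (limma adjusted p = 0.180 and 0.235). Without normal lung 2, Cd3d was called in neither comparison (limma adjusted p = 0.127 and 0.128), nor Cd3g in Rb/p53/p130 tumours (limma adjusted p = 0.0555).

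Cd3g and Cd3d lie head to head on chromosome 9, with 1355 bases between their RefSeq start sites, and their promoters are shown because these neighbours were the CD3 genes called lower. Each window holds 250 bases before and 50 after the start site, from RefSeq on GRCm38.p6, written 5′ to 3′ on the gene's strand. Capitals mark the motif AGGAAG of ETS factors on either strand, which 35.4% of 32851 promoter windows hold.
Cd3g promoter, chr9:44980382-44980681, minus strand: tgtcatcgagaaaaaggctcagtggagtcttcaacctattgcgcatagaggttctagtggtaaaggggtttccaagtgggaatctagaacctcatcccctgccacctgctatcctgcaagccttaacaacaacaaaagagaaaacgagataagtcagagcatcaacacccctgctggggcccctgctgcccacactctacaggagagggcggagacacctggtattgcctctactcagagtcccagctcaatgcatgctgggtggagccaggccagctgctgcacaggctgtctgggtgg
Cd3d promoter, chr9:44981536-44981835, plus strand: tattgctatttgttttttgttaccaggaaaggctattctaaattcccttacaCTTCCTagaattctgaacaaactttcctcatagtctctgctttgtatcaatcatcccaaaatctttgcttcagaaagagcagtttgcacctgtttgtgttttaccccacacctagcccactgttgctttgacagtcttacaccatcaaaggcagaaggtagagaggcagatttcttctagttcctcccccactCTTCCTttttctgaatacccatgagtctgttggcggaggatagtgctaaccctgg
The Cd3d window holds the motif, read on the opposite strand, at positions -198 and -5 from the start site, and the Cd3g window does not hold these letters.

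Among the other T cell surface genes, Cd2 varied most over the Rb/p53 tumours (SD 0.87), while Il7r varied more than Cd2 over the Rb/p53/p130 tumours (SD 0.43 against 0.23). Cd2, an adhesion receptor of T and NK cells, had 5.80, 5.65 and 5.34 in Rb/p53/p130 tumours and from 4.12 through 5.44 to 7.36 in Rb/p53 tumours, against 7.16 and 7.21 in normal lungs. Rb/p53 tumour 3 lay above both lungs and the other 9 lay below. The change was -1.72 ± 0.54 (SE, limma adjusted p = 0.0246) in Rb/p53 tumours and -1.59 ± 0.64 (limma adjusted p = 0.0864) in Rb/p53/p130 tumours. Cd27, a costimulatory receptor of the TNF receptor family, had 4.08, 3.97 and 4.18 in Rb/p53/p130 tumours and from 3.85 to 4.21 in Rb/p53 tumours, against 5.12 and 5.28 in normal lungs. The tumours were tightly grouped below both lungs (limma adjusted p = 1.92e-05 and 1.71e-06), and the fold was at least 1.11 in each comparison because the tumours lay under the floor. Cd8b1, the beta chain of the CD8 coreceptor, averaged 4.48 in Rb/p53/p130 tumours and 4.54 in Rb/p53 tumours, against 5.18 in normal lungs (limma adjusted p = 0.0197 and 0.00985). Its fold was at least 1.10, and 1 of the 10 Rb/p53 tumours (5.02) lay above normal lung 1 (4.94). With either lung left out Cd2 was not called in Rb/p53 tumours. Its change stayed near -1.72, at -1.75 without normal lung 1 and -1.69 without normal lung 2. The Cd8b1 calls were lost without normal lung 2, where its change shrank. It went from -0.70 to -0.45 in Rb/p53/p130 tumours and from -0.64 to -0.40 in Rb/p53 tumours. In Rb/p53/p130 tumours the Cd8b1 call was also lost without tumour 11 (limma adjusted p = 0.0581). Cd2 was called there without Rb/p53 tumour 3 (limma adjusted p = 0.0169).

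The remaining T cell genes passed the test in neither comparison. Cd4, the helper T cell coreceptor, averaged 6.78 ± 0.11 (SD, n = 3), 6.83 ± 0.21 (n = 10) and 6.94 (6.93 and 6.94) in Rb/p53/p130 tumours, Rb/p53 tumours and normal lungs. Its change was -0.16 (95% interval -0.54 to 0.22) in Rb/p53/p130 tumours and -0.10 (95% interval -0.42 to 0.22) in Rb/p53 tumours. Some mouse dendritic cells also carry Cd4, so its level is not one of T cells alone. Cd8a, the alpha chain, differed by -0.32 (limma adjusted p = 0.0727) and -0.24 (limma adjusted p = 0.107), with all tumours below both lungs. Without Rb/p53 tumour 10, Cd8a was called in Rb/p53/p130 tumours (limma adjusted p = 0.0486). Cd5 and Cd6, scavenger-type receptors that dampen T cell receptor signals, differed by at most 0.27 in size. Il7r, the receptor chain for the survival factor IL-7, had 8.17, 7.67 and 7.31 in Rb/p53/p130 tumours and from 6.52 through 7.64 to 9.02 in Rb/p53 tumours, against 8.19 and 8.65 in normal lungs. Rb/p53 tumour 2 lay above both lungs, and without it Il7r was called lower in Rb/p53 tumours (-0.99, limma adjusted p = 0.0419). Zap70, the kinase bound by activated CD3 chains, stood at 8.62, 8.70 and 8.78 by its brightest probe set, with changes of -0.16 and -0.08.

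NK and cytotoxic genes held the deepest fall of the 31. Klrd1, which encodes CD94 of the NK receptors that read class I molecules, had 4.78, 4.44 and 4.77 in Rb/p53/p130 tumours and from 3.88 through 4.26 to 5.14 in Rb/p53 tumours, against 7.43 and 7.17 in normal lungs. The 13 tumours lay more than 2 log2 units below the lungs. Klrd1 fell by 2.64 ± 0.29 (SE, limma adjusted p = 9.71e-06) in Rb/p53/p130 tumours and by 2.95 ± 0.25 (limma adjusted p = 4.10e-07) in Rb/p53 tumours, at least 4.77-fold and 4.74-fold. Ncr1, the activating receptor NKp46 that marks NK cells, had 5.16, 5.03 and 4.87 in Rb/p53/p130 tumours and from 4.65 through 4.82 to 5.41 in Rb/p53 tumours, against 6.37 and 6.13 in normal lungs. It was lower by at least 2.24-fold and 2.21-fold (limma adjusted p = 0.000514 and 3.77e-05). Nkg7, a granule protein of NK and cytotoxic T cells, had 5.96, 5.59 and 5.94 in Rb/p53/p130 tumours and from 5.42 through 5.83 to 6.66 in Rb/p53 tumours, against 7.13 and 7.23 in normal lungs. The fall was 2.54-fold and 2.37-fold (limma adjusted p = 0.00286 and 0.00111).

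Of the granule proteins Gzmb passed the test, and Gzma and Prf1 did not; whether they differ from each other was not tested. Gzmb, the granzyme that cleaves caspases, had 5.91, 5.33 and 5.36 in Rb/p53/p130 tumours and from 5.15 through 5.44 to 6.03 in Rb/p53 tumours, against 7.20 and 6.99 in normal lungs. It was lower in every tumour, by 2.96-fold (limma adjusted p = 0.000126) and 3.00-fold (limma adjusted p = 1.70e-05). Gzma, the tryptase-like granzyme, had 8.64, 6.62 and 8.23 in Rb/p53/p130 tumours and from 5.63 through 7.29 to 9.51 in Rb/p53 tumours, against 9.48 and 8.82 in normal lungs. Rb/p53 tumours 4 (8.90) and 5 (9.51) reached the range of the lungs, and the SD over the 10 tumours, 1.17, exceeded that of 97.7% of all genes. The Gzma change of -1.32 ± 0.93 in Rb/p53/p130 tumours and of -1.72 ± 0.79 in Rb/p53 tumours did not pass the test (SE, limma adjusted p = 0.346 and 0.113), though it was called in Rb/p53 tumours when tumour 5 was left out (-1.96, limma adjusted p = 0.0405). Prf1, the pore-forming perforin, averaged 5.98, 6.11 and 6.14 in Rb/p53/p130 tumours, Rb/p53 tumours and normal lungs, with 95% intervals of the change from -0.56 to 0.24 and from -0.37 to 0.32.

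The promoters of Gzmb and Ncr1 are shown as those of a granule enzyme and an NK receptor that fell in both tumour groups and are in the promoter table. Capitals mark TGTGGT, a core motif of RUNX factors, or its reverse complement ACCACA.
Gzmb promoter, chr14:56262285-56262584, minus strand: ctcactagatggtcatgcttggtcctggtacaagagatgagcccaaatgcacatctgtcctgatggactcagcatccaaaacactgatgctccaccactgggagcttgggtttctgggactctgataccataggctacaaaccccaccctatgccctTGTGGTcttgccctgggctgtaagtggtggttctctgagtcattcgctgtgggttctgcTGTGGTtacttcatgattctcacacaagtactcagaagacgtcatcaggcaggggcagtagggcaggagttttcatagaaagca
Ncr1 promoter (the first of those listed), chr7:4337465-4337764, plus strand: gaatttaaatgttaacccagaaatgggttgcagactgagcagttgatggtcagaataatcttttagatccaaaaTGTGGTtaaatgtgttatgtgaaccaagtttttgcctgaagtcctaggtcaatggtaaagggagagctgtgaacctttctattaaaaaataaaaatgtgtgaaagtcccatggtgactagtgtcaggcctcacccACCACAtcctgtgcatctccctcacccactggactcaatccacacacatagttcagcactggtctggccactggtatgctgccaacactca
Gzmb holds the motif at positions -93 and -34 and Ncr1 at -176 and -41. Of all windows 16.8% hold it at least once, and of the 23 measured members with a window, 9 do.

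**Figure D2:**
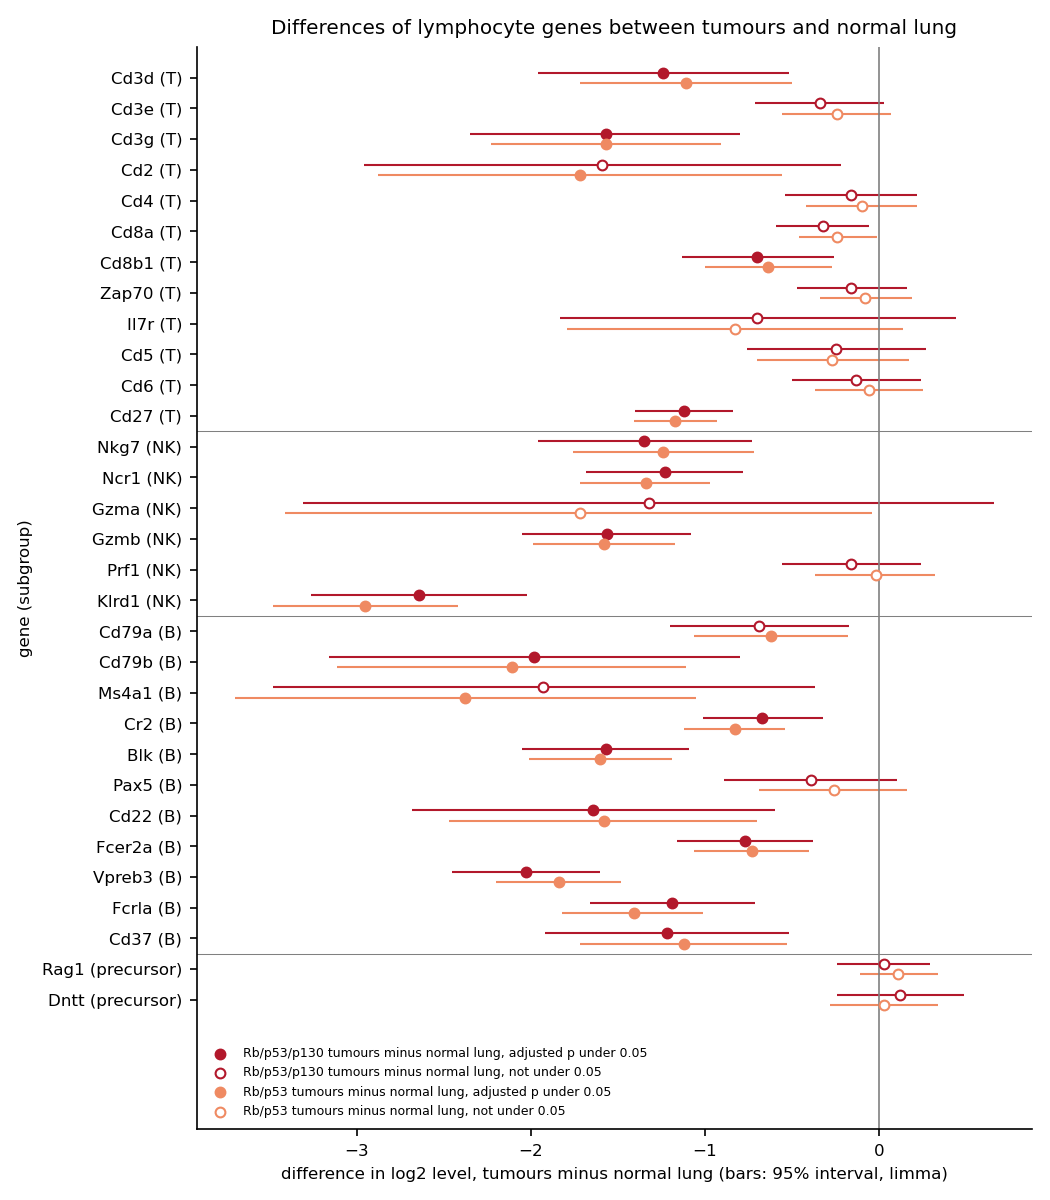
Difference in log2 level between tumours and normal lung for each measured gene, with its 95% interval from limma; filled points passed an adjusted p of 0.05. All filled points lie left of 0, and Klrd1 lies farthest left at -2.95 in Rb/p53 tumours.

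Of the 11 B cell genes only Pax5 was called in neither comparison. Cd79b, one of the paired signalling chains of the B cell receptor, had 6.47, 7.05 and 6.91 in Rb/p53/p130 tumours and from 5.14 through 6.89 to 7.55 in Rb/p53 tumours, against 8.73 and 8.85 in normal lungs. All tumours lay below the lungs, by 3.95-fold (limma adjusted p = 0.0160) and 4.31-fold (limma adjusted p = 0.00284). Its partner Cd79a had 5.07, 5.30 and 5.39 in Rb/p53/p130 tumours and from 4.92 through 5.37 to 5.67 in Rb/p53 tumours, against 6.30 and 5.58 in normal lungs. The lungs differed from each other by more than Cd79a fell, -0.69 ± 0.24 (SE, limma adjusted p = 0.0502) in Rb/p53/p130 tumours and -0.62 ± 0.21 (limma adjusted p = 0.0307) in Rb/p53 tumours. Ms4a1, which encodes CD20 of mature B cells, had 6.50, 7.43 and 7.21 in Rb/p53/p130 tumours and from 4.76 through 6.63 to 8.01 in Rb/p53 tumours, against 9.04 and 8.92 in normal lungs. It was lower in all 13 tumours, with -1.93 ± 0.73 (limma adjusted p = 0.0681) in Rb/p53/p130 tumours, which did not pass the test, and -2.38 ± 0.62 (limma adjusted p = 0.00817) in Rb/p53 tumours. Without normal lung 1 or 2, Ms4a1 was not called in Rb/p53 tumours (limma adjusted p = 0.0810 and 0.0639), nor Cd79b in Rb/p53/p130 tumours (limma adjusted p = 0.0785 and 0.0885), where it was also lost without tumour 11 (limma adjusted p = 0.0565). The Cd79a call in Rb/p53 tumours was lost without normal lung 1, where its change shrank to -0.26. Without normal lung 2 its change in Rb/p53/p130 tumours was -1.05. In Rb/p53/p130 tumours Cd79a was called without Rb/p53 tumour 3, 5 or 9 (limma adjusted p = 0.0481, 0.0451 and 0.0405). Ms4a1 was called there without Rb/p53 tumour 4 or 7 (limma adjusted p = 0.0478 and 0.0240).

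Among B cell coreceptors, Cd22, a lectin that restrains the B cell receptor, had 7.77, 7.58 and 7.26 in Rb/p53/p130 tumours and from 6.65 through 7.60 to 8.78 in Rb/p53 tumours, against 9.18 and 9.17 in normal lungs. The fall was 3.12-fold (limma adjusted p = 0.0222) and 3.00-fold (limma adjusted p = 0.00823). Cr2, the complement receptor CD21, and Fcer2a, the low-affinity IgE receptor CD23, were lower by at least 1.49-fold and 1.45-fold in Rb/p53/p130 tumours and by at least 1.50-fold and 1.44-fold in Rb/p53 tumours. Both averages lay at or below the floor in each tumour group. Fcrla, an intracellular Fc receptor-like protein of B cells, fell 2.27-fold in Rb/p53/p130 tumours and at least 2.35-fold in Rb/p53 tumours (limma adjusted p = 0.00113 and 4.33e-05). The Fcrla value rests on a probe set whose suffix marks possible matches to several transcripts. The one without a suffix gave -0.31 and -0.12 (limma adjusted p = 0.324 and 0.660). It averaged 4.04, 4.23 and 4.35 in Rb/p53/p130 tumours, Rb/p53 tumours and normal lungs, below the floor in all groups. Cd37, a tetraspanin of mature B cells, fell 2.33-fold and 2.18-fold (limma adjusted p = 0.0130 and 0.00597). Without single lungs Cd22 was called in neither comparison (limma adjusted p from 0.0697 to 0.110), and in Rb/p53/p130 tumours it was also lost without tumour 12 or 13 (limma adjusted p = 0.0505 and 0.0673). Without normal lung 1, neither Fcer2a (limma adjusted p = 0.0864 and 0.0633) nor Cd37 (limma adjusted p = 0.127 and 0.109) was called, and without normal lung 2 Cr2 was not called in Rb/p53/p130 tumours (limma adjusted p = 0.0667).

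Inside the B cell, Blk, a Src family kinase, had 5.17, 5.54 and 5.33 in Rb/p53/p130 tumours and from 4.89 through 5.26 to 5.84 in Rb/p53 tumours, against 7.13 and 6.70 in normal lungs. It was lower by 2.96-fold (limma adjusted p = 0.000118) and 3.03-fold (limma adjusted p = 1.46e-05). Vpreb3, a protein of the secretory pathway in B cells, had 5.75, 5.70 and 5.81 in Rb/p53/p130 tumours and from 5.51 through 6.01 to 6.26 in Rb/p53 tumours, against 7.61 and 7.95 in normal lungs. The tumours varied little, and the fall was 4.07-fold (limma adjusted p = 3.05e-06) and 3.58-fold (limma adjusted p = 1.04e-06). Pax5 averaged 5.44, 5.57 and 5.83 in Rb/p53/p130 tumours, Rb/p53 tumours and normal lungs, with 5 of the 10 Rb/p53 tumours below both lungs, and was not called (limma adjusted p = 0.253 and 0.350).

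The Vpreb3 promoter is shown because Vpreb3 fell most among the B cell genes in the promoter table and its window holds the octamer ATGCAAAT, the motif bound by OCT factors that act in B cells. Capitals mark, on either strand, the octamer, TGTGGT and AGGAAG.
Vpreb3 promoter, chr10:75948050-75948349, plus strand: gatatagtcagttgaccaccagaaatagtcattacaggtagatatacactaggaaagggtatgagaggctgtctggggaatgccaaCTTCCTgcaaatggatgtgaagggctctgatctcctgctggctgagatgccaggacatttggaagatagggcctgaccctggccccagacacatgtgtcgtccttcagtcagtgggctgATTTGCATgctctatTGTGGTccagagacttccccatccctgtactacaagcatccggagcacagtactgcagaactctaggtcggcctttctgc
The octamer, read on the opposite strand, begins at position -45, TGTGGT at -30 and AGGAAG, also on the opposite strand, at -164. Of all windows 1.74% hold the octamer, and of the 23 measured members with a window Vpreb3 was the only one. A search for CCCNNGGG, a core of EBF factors, found it in 3 of the 23 and in 13.7% of all windows. These matches describe the letters in the windows and do not show binding.

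**Figure D3:**
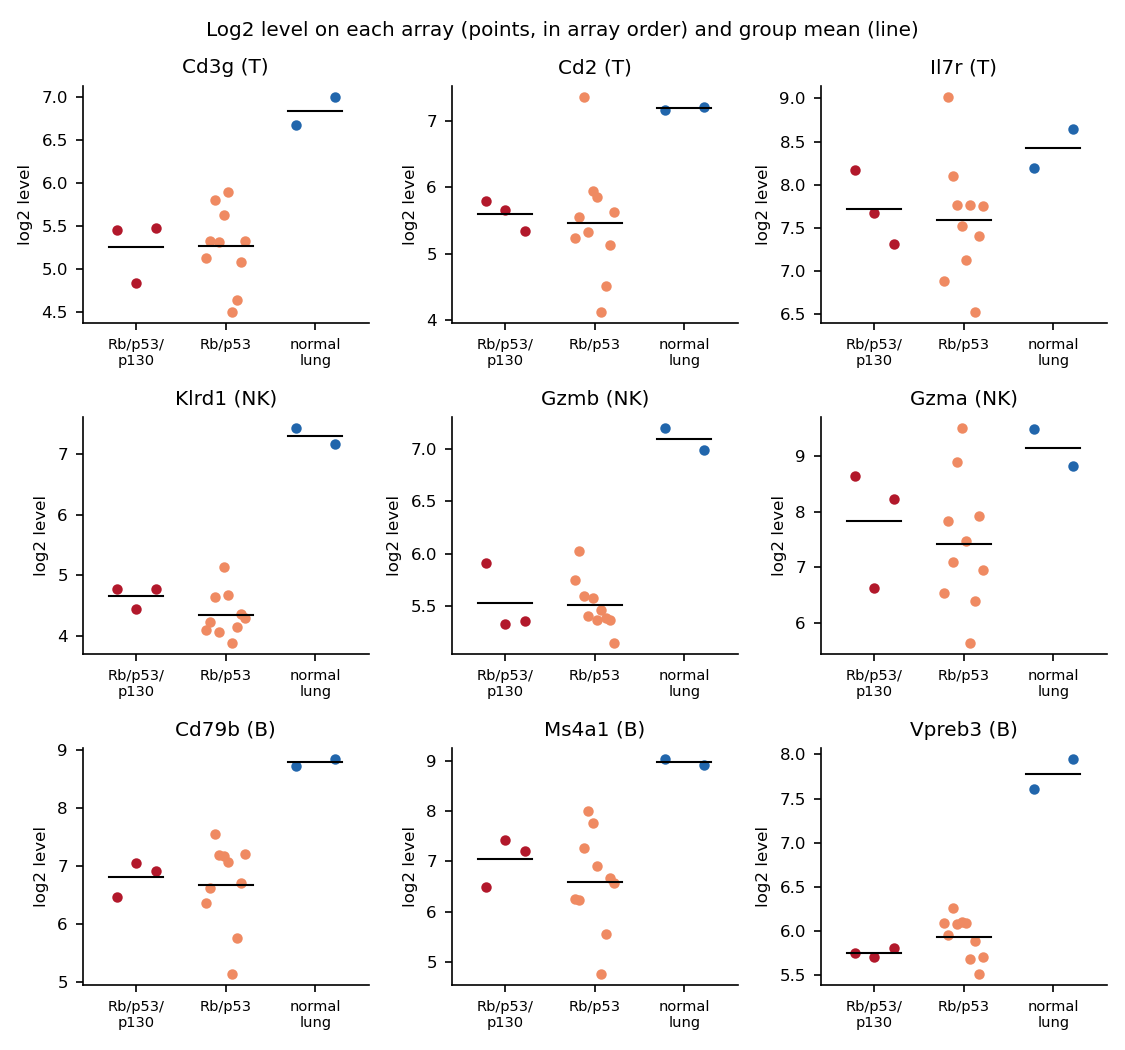
Log2 level of 9 members, 3 per subgroup, on each array, with the group mean as a line; the 9 panels have their own axes. In Cd3g, Klrd1, Gzmb, Cd79b, Ms4a1 and Vpreb3 every tumour lies below both normal lungs, while in Cd2, Il7r and Gzma single Rb/p53 tumours reach or pass them.

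The precursor genes were called in neither comparison. Rag1, a recombinase of developing lymphocytes, lay below the floor on every array, at 3.52 to 3.81 in Rb/p53/p130 tumours and 3.63 to 3.89 in Rb/p53 tumours, against 3.77 and 3.56 in normal lungs. Dntt, which adds bases at receptor gene joints, had 5.59, 5.64 and 5.50 in Rb/p53/p130 tumours and from 5.15 to 5.73 in Rb/p53 tumours, against 5.37 and 5.53 in normal lungs. Its change was 0.12 (95% interval -0.24 to 0.49) and 0.03 (95% interval -0.28 to 0.34).

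For 12 of the 31 genes the array holds several probe sets, and these did not always move together. A second probe set of Ms4a1 gave -2.20 ± 0.50 (SE, limma adjusted p = 0.00467) in Rb/p53/p130 tumours and -2.50 ± 0.43 (limma adjusted p = 0.000367) in Rb/p53 tumours, so by this one Ms4a1 was called in both. A dimmer probe set of Zap70 gave -0.84 (limma adjusted p = 0.123) and -0.88 (limma adjusted p = 0.0469), where the brightest was flat. One of the 4 dimmer probe sets of Cd8a gave -0.63 (limma adjusted p = 0.00183) and -0.61 (limma adjusted p = 0.000454). Another was called only in Rb/p53/p130 tumours (-0.42, limma adjusted p = 0.0303), with means below the floor in all groups. Both Cd37 probe sets were called in both comparisons. For Fcer2a the dimmer probe set gave -0.10 and -0.11 and was called in neither, with means below the floor in all groups. The dimmer probe set of Cd22 gave -0.62 (limma adjusted p = 0.0754) and -0.61 (limma adjusted p = 0.0321), near the floor even in normal lung. The second brightest of Fcrla gave -0.58 (limma adjusted p = 0.0747) and -0.64 (limma adjusted p = 0.0185), so both genes lost their call in Rb/p53/p130 tumours by it.

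Other genes of the same pathways, listed by name, were counted in the same fit, where 15.6% of all genes were called lower in Rb/p53/p130 tumours and 20.5% in Rb/p53 tumours. Of T cell receptor signalling partners, 9 of 18 were called lower and 1 higher in Rb/p53/p130 tumours, and 10 lower and 1 higher in Rb/p53 tumours. Fyb and Lcp2, adaptors downstream of Zap70, fell 3.80-fold and 3.49-fold in Rb/p53/p130 tumours and 3.12-fold and 2.98-fold in Rb/p53 tumours. The gene called higher was Skap1, an adaptor that couples the T cell receptor to integrins, which averaged 9.91, 10.06 and 6.30 in Rb/p53/p130 tumours, Rb/p53 tumours and normal lungs. Of lymphocyte factors and homing receptors, 9 of 15 were lower and 1 higher in Rb/p53/p130 tumours and 12 lower in Rb/p53 tumours. Gata3, a factor of T cells and innate lymphoid cells, averaged 4.24, 4.42 and 7.77 in the same order, at least 6.60-fold and 6.55-fold lower. Runx3, a factor of cytotoxic lymphocytes, averaged 8.04 in Rb/p53/p130 tumours against 5.75 in normal lungs and was the one called higher (limma adjusted p = 0.0412). Of NK receptors and effectors, 8 of 16 and 9 of 16 were called lower, with Klra8, the activating receptor Ly49H, lower by at least 2.11-fold in each. Klrc1 and Gzmc, and in Rb/p53 tumours Klrk1, were counted among these although they lay below the floor in all groups. Checkpoint genes were lower in 4 of 8 in both comparisons, and Btla, an inhibitory receptor of B and T cells, fell 7.65-fold and 7.53-fold.

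Among B cell receptor signalling partners, 9 of 16 were called lower in each comparison. Tnfrsf13b, the receptor TACI for B cell survival ligands, averaged 5.39, 5.27 and 7.70 in Rb/p53/p130 tumours, Rb/p53 tumours and normal lungs, and Bank1, a B cell scaffold protein, 5.76, 5.85 and 7.77. Of B cell factors, 6 of 10 were lower in each, with Ebf1, which sets B cell identity and is also transcribed in stromal cells, lower by at least 4.95-fold and 4.66-fold. Plasma cell genes were lower in 2 of 7 and 3 of 7, beside the same 15.6% and 20.5% of all genes. Jchain, the joining chain of secreted IgM and IgA, averaged 10.79 in Rb/p53/p130 tumours and 9.60 in Rb/p53 tumours, against 12.44 in normal lungs, and was called in Rb/p53 tumours (limma adjusted p = 0.00790) and not in Rb/p53/p130 tumours (-1.65 ± 0.87, SE, limma adjusted p = 0.194). Of 8 lymphoid stroma genes, 0 were called lower and 1 higher in Rb/p53/p130 tumours, and 1 lower and 1 higher in Rb/p53 tumours. Of all genes, 15.3% and 18.3% were called higher. The medians of the 8 were -0.13 and -0.19. The gene called higher was Cxcl13, a chemokine that draws B cells, which moved the other way from the B cell genes. It averaged 12.52, 12.95 and 8.16 in Rb/p53/p130 tumours, Rb/p53 tumours and normal lungs, 20.5-fold and 27.7-fold higher (limma adjusted p = 0.00665 and 0.000743). The gene called lower in Rb/p53 tumours was Mfge8.

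The medians of pan-leukocyte and endothelial genes were lower in tumours as well. Of all genes, 15.6% were called lower and 15.3% higher in Rb/p53/p130 tumours, and 20.5% lower and 18.3% higher in Rb/p53 tumours. Pan-leukocyte genes were called lower in 7 of 15 in Rb/p53/p130 tumours and 8 of 15 in Rb/p53 tumours, with medians of -1.10 and -0.94. Ptprc, the CD45 phosphatase of all leukocytes, averaged 9.39, 9.40 and 11.67 in Rb/p53/p130 tumours, Rb/p53 tumours and normal lungs. Endothelial genes fell in 14 of 15 in each, with medians of -3.51 and -3.29, and averaged 7.45 to 7.83 and 6.75 to 8.73 on tumour arrays, against 10.95 and 11.49 in normal lungs. Macrophage and dendritic genes went both ways, 7 of 19 lower and 2 higher in Rb/p53/p130 tumours and 6 lower and 4 higher in Rb/p53 tumours. None of the pan-leukocyte genes and none of the endothelial genes averaged at or below the floor in either tumour group. Their part in the lymphocyte values was not tested.

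The members were also set against each array's mean of the 15 pan-leukocyte genes, which subtracts the same amount from every gene of an array and so keeps their order. On this scale the median of all genes moved to 1.21 in Rb/p53/p130 tumours and 1.10 in Rb/p53 tumours, so most genes read as higher. Of all 18193 genes, 12693 and 12981 were called higher. Klrd1 remained lower, by -1.40 ± 0.38 (SE, limma adjusted p = 0.00478) and -1.82 ± 0.32 (limma adjusted p = 9.22e-05). In Rb/p53 tumours Cd79b (-0.98, limma adjusted p = 0.0214) and Ms4a1 (-1.25, limma adjusted p = 0.0268) were lower as well. These were 1 and 3 of 31 members, where 4.34% and 6.00% of all genes were called lower. Relative to the leukocyte mean, Cd4 changed by 1.08 and 1.03, Cd3e by 0.89 and 0.88, and Cd6 by 1.10 and 1.07. Each fell less than that mean and was called higher on this scale, yet its change lay below the median of all genes. Cd3d and Nkg7 moved with the leukocyte mean, at -0.01 and 0.02 for Cd3d and -0.11 and -0.11 for Nkg7. Cd3g (-0.34 and -0.44), Cd2 (-0.36 and -0.59), Blk (-0.33 and -0.47) and Cd22 (-0.41 and -0.46) fell more than the leukocyte mean without passing the test. The change of Cd27 on this scale was 0.11 and -0.04.

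The signal along a control transcript differed between the groups as well. The Gapdh control probe sets, which read the 3′ and the 5′ end of one transcript, differed by -0.03 to 0.08 on Rb/p53/p130 tumour arrays and -0.07 to 0.36 on Rb/p53 tumour arrays, against 0.88 and 0.72 in normal lungs. With this difference as a covariate, Cd27 (limma adjusted p = 0.0119) was the 1 member called lower in Rb/p53/p130 tumours, and Cd27 (limma adjusted p = 0.00641) and Klrd1 (limma adjusted p = 0.0221) in Rb/p53 tumours, beside 2.25% and 2.73% of all genes. Some changes kept about their size with larger errors, as for Klrd1 in Rb/p53/p130 tumours (-2.39, limma adjusted p = 0.0625) and Blk in both (-1.47 and -1.51, limma adjusted p = 0.143 and 0.0935). Others shrank or turned, as for Cd22 (-0.07 and -0.09) and Cd2 (1.02 and 0.76, not called). The covariate separates the lungs from every tumour, so it and tissue cannot be told apart by this fit.

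Between the tumour genotypes no member passed the test. Of 31 genes, 0 were called in limma, where 0.0715% of all genes were called. An unadjusted p under 0.05 was found for 0 of the 31, where 475 lower and 846 higher of all 18193 genes had one. Differences of Rb/p53/p130 minus Rb/p53 tumours ran from -0.18 for Vpreb3 to 0.45 for Ms4a1. The intervals were wide for variable genes, from -1.03 to 1.83 for Gzma and from -0.67 to 1.57 for Ms4a1, and narrow for Cd27, from -0.16 to 0.25.

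Within the 10 Rb/p53 tumours the genes varied by different amounts. Ms4a1 (SD 0.98), Cd2 (0.87), Cd79b (0.75) and Il7r (0.69) spread more than at least 90.3% of all genes, while Cd8a (0.13) and Cd27 (0.13) spread more than 7.59% and 8.15%. Tumour 5 was the highest of the 10 for 13 of the 29 T, NK and B genes, and tumour 3 for 10. Tumour 7 was the lowest for 12, among them Cd3g (4.50), Cd79b (5.14) and Ms4a1 (4.76). The means over the subgroups on tumour 7 were 5.69 for T cell genes, 5.20 for NK and cytotoxic genes and 5.18 for B cell genes, and on tumour 5 they were 6.30, 6.29 and 6.22. Tumour 10 stood apart from this order in pan-leukocyte genes, with a mean of 9.05 beside 9.10 on tumour 3, while its T cell mean was 5.89 and its NK mean 5.49. Lung genes followed the order of tumours in part. Alveolar and airway genes averaged 12.02 on tumour 3 and 11.71 on tumour 5, against 9.40 on tumour 7 and 9.27 on tumour 8. Endothelial genes averaged 8.73, 8.18, 6.75 and 7.20 on the same tumours. Tumours 6 and 10 were also high in both, with 12.09 and 11.90 for alveolar and airway genes and 8.67 and 8.54 for endothelial genes. Tumour 10 was not high in T cell or NK genes. Tumour 4 was lower in both, at 10.04 and 7.34, yet its B cell mean was 6.07, beside 6.20 on tumour 3. The part of alveolar, airway and endothelial genes in the lymphocyte values was not tested.

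**Figure D4:**
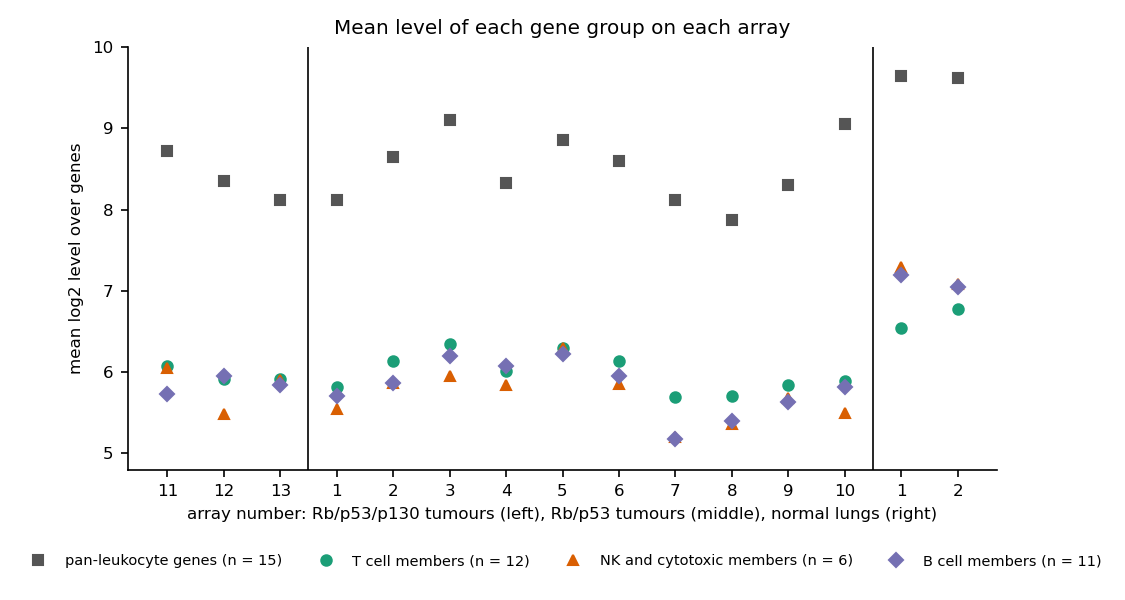
Mean log2 level of the measured T, NK and B cell genes and of 15 pan-leukocyte genes on each array. All 3 lymphocyte means are lower on every tumour array (up to 6.34) than on the normal lung arrays (from 6.54), and tumours 7 and 8 have the lowest B cell means.

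Gene pairs were compared across the 10 Rb/p53 tumours to see whether genes of a cell type rise together. Of 7 pairs, 3 passed after adjustment over the pairs (permutation test, 100000 draws, two-sided). Cd3g and Cd79b, of T and of B cells, had r = 0.90 (adjusted permutation p = 0.00343) and rho = 0.70 (adjusted permutation p = 0.0698). Cd3g and Ptprc had r = 0.87 (adjusted permutation p = 0.00469) and rho = 0.84 (adjusted permutation p = 0.0256). Cd3d and Cd3g had r = 0.79 (adjusted permutation p = 0.0155) and rho = 0.75 (adjusted permutation p = 0.0616). Without the 2 tumours farthest from the median of the first gene, these r were 0.69, 0.65 and 0.57 over 8 tumours (adjusted exact permutation p = 0.107, 0.120 and 0.157). Left out were tumours 7 and 8 for the pairs of Cd3g with Cd79b and Ptprc, and tumours 3 and 7 for Cd3d with Cd3g. The 3 pairs no longer passed, while r stayed positive. With fewer tumours and a narrower range, this cannot show whether the calls rest on the tumours left out. Over all 13 tumours, centred by genotype, r was 0.78, 0.85 and 0.75 for the same pairs (adjusted permutation p = 0.00469, 0.00189 and 0.00646). Tumours 7 and 8, low in both Cd3g and Cd79b, also had the lowest endothelial and alveolar and airway means of the 10, whose part in these relations was not tested. Cd79a and Cd79b, the 2 chains of one receptor, had r = 0.55 (adjusted permutation p = 0.138), and r = 0.90 without tumours 6 and 9 (adjusted exact permutation p = 0.0139). Cd79a and Ms4a1 had r = 0.56 (adjusted permutation p = 0.138), Cd8a and Cd8b1 r = 0.45 and Nkg7 and Gzma r = 0.44 (adjusted permutation p = 0.205 each). Their rho were 0.52 for Cd79a with Cd79b, 0.42 for Cd79a with Ms4a1, 0.45 for the CD8 chains and 0.50 for Nkg7 with Gzma, with adjusted permutation p from 0.202 to 0.231. The labels name no batch, so no value within batches could be given.

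**Figure D5:**
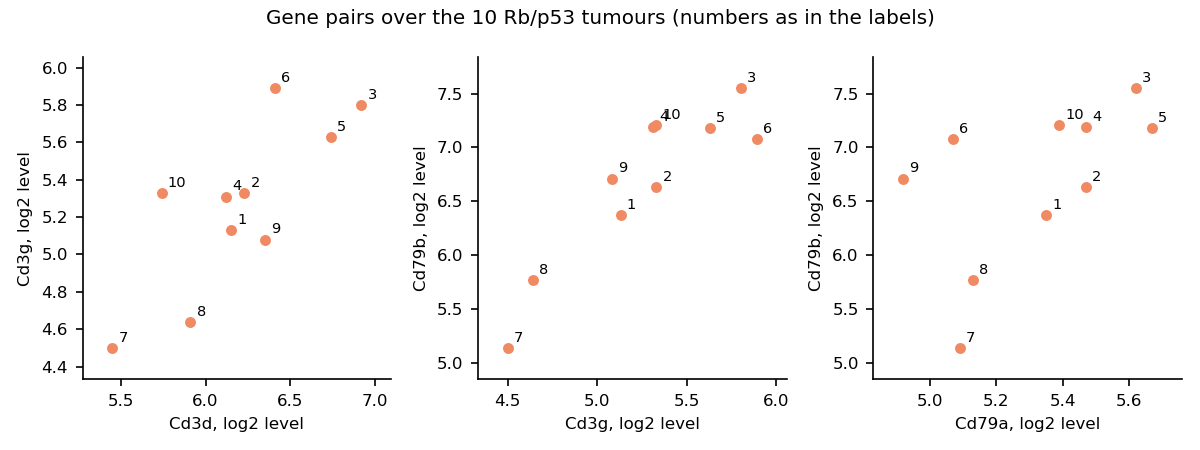
Log2 levels of Cd3g against Cd3d, Cd79b against Cd3g and Cd79b against Cd79a over the 10 Rb/p53 tumours, numbered as in the labels. Tumours 7 and 8 lie at the low end of the first pair of panels, and tumours 6 and 9 have more Cd79b than tumours 7 and 8, which have like Cd79a, in the last.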

How the data were processed

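Arrays of 3 Rb/p53/p130 tumours, 10 Rb/p53 tumours and 2 normal lungs were grouped by their sample labels. RNA was amplified before labelling, per the labels' protocols, which weakens signal far from the 3′ end. The deposited values are log2 values per probe set, made by the authors with RMA, as named without a version in the submitters' processing notes. RMA gives all arrays like distributions, which hides shifts common to most genes. No build is given in the sources used here.

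Of 45101 probe sets, 64 controls were left out. Of the 45037 tested, 34945 had 1 gene symbol in the probe table, 932 several and 9160 none. limma 3.58.1 (R 4.3.3) was fitted with lmFit and eBayes, all groups in 1 fit, with Benjamini-Hochberg adjustment over probe sets. A gene was read through its brightest probe set. Folds are lower bounds where the lower group averaged at or below 5.05: the higher group's mean over the mean of each lower array's value or 5.05, whichever is larger. The fit was tested on simulated data. Correlations used scipy 1.17.1.

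The members and lists were chosen with earlier results of these data known. All 33 members were to be named, with Ptprc and, of each other list, up to 3 called genes with the largest change per comparison. Several of these were counted only. Motifs were chosen after the promoters were seen. Alternatives changed arrays, scaling, probe sets, covariates, test and replicate block. The sample titles do not say whether the array numbers pair the samples. Same-numbered tumour and lung deviated from their group means together with r = -0.004 and -0.055. The lungs deviate from their mean by opposite amounts, so these values cannot exclude pairing. Of 8 planned gene pairs 7 were run, since Lck was not analysed here.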

Additional observations from a re-analysis of the deposited data

Results flagged for a closer look

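Among 31 members and Ptprc, 1 gene had a Rb/p53 tumour far from the other 9 by Dixon's test, where chance alone gives about 1 in 20. Fcrla had its lowest level, 4.26, in tumour 7, against 4.77 in the next lowest tumour and 5.21 in the highest. The gap was 0.533 of the range, above the critical value of 0.466.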

How the results depend on the processing

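No member was called between the tumour genotypes under any alternative that could be fitted. Leaving out single arrays, the members called ranged from 11 to 18 in Rb/p53/p130 tumours and from 13 to 20 in Rb/p53 tumours, against 16 and 19 with all arrays. By subgroup the ranges were 1 to 5 and 2 to 6 for T cell genes, 4 to 4 and 4 to 5 for NK and cytotoxic genes, and 4 to 9 and 5 to 10 for B cell genes. Among probe sets above the median, 3 and 3 of 8 members were called lower, beside 1831 and 2444 of 11610 genes (T 0, NK 0, B 3 in each comparison). By the second brightest probe set, 2 and 4 of 12 were called lower, beside 1127 and 1452 of 9010 genes (T 0 and 0, NK 0 and 0, B 2 and 4). These alternatives read fewer genes. With the Gapdh covariate, 1 and 2 were called (T 1 and 1, NK 0 and 1, B 0 and 0), and in Rb/p53 tumours Cd2 turned to 0.76 and Cd79a to 0.19. Among members not called at first, Pax5 turned to 0.78 and 0.85, Prf1 to 0.65 and 0.75 and Il7r to 0.34 and 0.15, Cd2 to 1.02 and Cd79a to 0.17 in Rb/p53/p130 tumours, and some within 0.2 of 0. None that turned was called with the covariate. The exact rank-sum test called 0 in each comparison and subgroup, where the smallest unadjusted p it can give is 0.2 and 0.0303. Set against the pan-leukocyte mean, 10 members were called in Rb/p53/p130 tumours, 9 of them higher, and in Rb/p53 tumours 3 were lower and 10 higher. Of all 18193 genes, 12693 and 12981 were called higher on this scale. Called lower on this scale were T 0 and 0, NK 1 and 1, B 0 and 2. Of members called on either scale, the sign turned in Rb/p53/p130 tumours for Cd3e 0.89, Cd4 1.08, Cd8a 0.91, Cd8b1 0.54, Zap70 1.07, Cd5 0.99, Cd6 1.10, Cd27 0.11, Ncr1 0.00, Prf1 1.07, Cr2 0.57, Fcer2a 0.46, Fcrla 0.05 and Cd37 0.01. In Rb/p53 tumours it turned for Cd3d 0.02, Cd3e 0.88, Cd4 1.03, Cd8a 0.89, Cd8b1 0.49, Zap70 1.05, Cd5 0.86, Cd6 1.07, Prf1 1.10, Cd79a 0.51, Cr2 0.30, Pax5 0.86, Fcer2a 0.40 and Cd37 0.00, since the leukocyte mean itself was lower in tumours. Values of 0.00 are next to no difference. Of members called on neither scale, Il7r turned to 0.54 and 0.30, and in Rb/p53/p130 tumours Cd79a to 0.54 and Pax5 to 0.84. The sample titles do not say whether the array numbers pair the samples. With the replicate block 14 of the 19 members called in Rb/p53 tumours remained, 6 of them B cell genes, and 3891 of all genes were called, against 7058. Over all genes in Rb/p53/p130 tumours, 5622 were called, against 3650 without normal lung 1, 2441 by the second brightest probe set, 940 with the Gapdh covariate and 13482 on the leukocyte scale. In Rb/p53 tumours the counts were 4604 and 4705 without normal lung 1 or 2, and 3147, 1106 and 14072 under the same 3 alternatives. Between genotypes 13 genes were called, against 662 with array weights, 32 by the second brightest probe set, 21 without Rb/p53 tumour 1, 3 without tumour 11, 12 or 13, 1 on the leukocyte scale and 0 by the mean of probe sets or the rank-sum test. For the gene pairs, r without the 2 farthest tumours was 0.57 for Cd3d and Cd3g, 0.69 for Cd3g and Cd79b, 0.65 for Cd3g and Ptprc, 0.86 for Nkg7 and Gzma, 0.90 for Cd79a and Cd79b and 0.87 for Cd79a and Ms4a1, and the first 3 no longer passed while the last 3 did. On the leukocyte scale r was 0.72 for Cd3d and Cd3g and 0.60 for Cd3g and Cd79b, neither passing, and 0.89 for Cd8a and Cd8b1, which passed. There r was 0.21 for Nkg7 and Gzma, -0.20 for Cd79a and Cd79b and 0.09 for Cd79a and Ms4a1, none passing. Where no reason is given, the cause was not tested. With 2 lungs, and members near the floor, small differences were not detectable.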

Other observations

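Among macrophage genes, C1qb, a chain of complement C1q, averaged 10.33 in Rb/p53/p130 tumours and 10.54 in Rb/p53 tumours, against 8.36 in normal lungs, 3.92-fold and 4.53-fold higher (limma adjusted p = 0.0116 and 0.00142). Siglecf, a lectin of alveolar macrophages and eosinophils, averaged 4.95 and 5.06 in the same tumours, against 7.38 in normal lungs (limma adjusted p = 0.0157 and 0.00581). Cd163, a scavenger receptor of resident macrophages, was lower by at least 3.51-fold in each (limma adjusted p = 1.59e-05 and 5.22e-06). Of 10 neutrophil genes measured, 1 was called lower in each comparison, beside 15.6% and 20.5% of all genes: the receptor gene Csf3r, by 2.62-fold and 2.23-fold (limma adjusted p = 0.00121 and 0.000972). Of 8 thymocyte and precursor genes, 1 was called lower in Rb/p53/p130 tumours, and 4 lower and 1 higher in Rb/p53 tumours, beside the same shares lower and 18.3% of all genes higher in Rb/p53 tumours. The gene lower in both was Cd34, which endothelial cells also carry, by 4.97-fold and 5.82-fold (limma adjusted p = 0.0108 and 0.00137).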
